A study of Mus musculus with 6 samples.

Results

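Immune checkpoint and costimulation ligands are surface or secreted proteins through which T cells, natural killer (NK) cells and macrophages read another cell. The group described here is 9 mouse genes picked by name from the 24015 gene symbols listed, namely Cd80, Cd86, Icosl, Cd274, Pdcd1lg2, Cd276, Lgals9, Pvr and Cd47. RNA sequencing counts per gene were available for 6 libraries of sorted leukaemia stem and progenitor cells from mice with established acute myeloid leukaemia, 3 labelled LSPCT (tamoxifen-treated mice) and 3 labelled LSPC (untreated mice). In both groups the leukaemia was driven by the MLL-AF9 fusion and had been started in lineage-negative, Kit-positive bone marrow progenitors of NIKERT2 mice. These carry at Rosa a transgene for the kinase NIK (gene Map3k14) behind a floxed stop, and at Rosa a tamoxifen-dependent Cre (CreERT2). Tamoxifen lets Cre remove the stop, so the comparison asks how the ligand genes stand in leukaemia cells in which NIK was switched on. The untreated cells carry the same alleles without tamoxifen, and tamoxifen exposure, Cre activity and NIK expression therefore cannot be told apart. The labels do not tie each replicate to its own mouse, and the p-values cover whatever spread lies between these libraries, possibly a technical one. Age, tamoxifen dose and sort gates are not given in the labels.

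The ligands work in pairs with receptors. CD80 and CD86 bind CD28, which gives a T cell the second signal it needs beside its antigen receptor, and CTLA-4, which withholds it, while ICOS ligand (Icosl) engages ICOS. PD-L1 (Cd274) and PD-L2 (Pdcd1lg2) bind PD-1 and restrain T cells, galectin-9 (Lgals9) binds TIM-3 among other glycoproteins, CD155 (Pvr) is read by CD226, CD96 and TIGIT on T and NK cells, and CD47 signals through SIRPα on macrophages not to engulf the cell. Professional antigen-presenting cells carry CD80, CD86 and both PD-1 ligands, and NF-kB and interferon signalling are known inducers of several of these genes.

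Of the 9 genes, 3 were higher in the LSPCT libraries (Cd80, Cd274 and Icosl), 1 was lower (Pvr) and 4 did not pass the test (Cd86, Pdcd1lg2, Lgals9 and Cd47). Cd276 was not tested, because it reached the minimum count (scaled to library size) in only 2 LSPCT libraries and 0 LSPC libraries. The test was edgeR's quasi-likelihood test with Benjamini-Hochberg adjustment over all 12729 genes tested and a threshold of 0.05. In the same comparison 17.2% of all genes tested passed, 8.96% as higher and 8.24% as lower. The 4 genes that passed are also the members whose libraries did not overlap between groups in CPM (counts scaled to the library total), as was the case for 37.7% of all genes tested (18.0% higher and 19.6% lower in LSPCT libraries). The median log2 fold change was 0.74 over the 8 tested members and -0.00 over all genes tested. Cd80, Cd86 and Pdcd1lg2 reached the minimum count in all 3 LSPCT libraries and in 1 LSPC library each, so that they entered the test through the group in which they were high. Their log2 fold changes (4.37, 1.97 and 0.99, in that order) are part of the median over the members. That median therefore depends in part on the filter, and a shift of the group as a whole was not tested.

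Map3k14 itself stood at 129.8, 190.5 and 159.4 CPM in LSPCT replicates 1 to 3, against 26.5, 24.2 and 28.8 CPM in LSPC replicates 1 to 3. Total counts were 19999071 to 22454753 in LSPCT libraries and 20410001 to 26773176 in LSPC libraries, and a library with 0 counts allows up to 3, or 0.111 to 0.150 CPM, for counting error only. Among the leukaemia markers, Kit, Cd34, Hoxa9, Meis1, Ptprc and Itgam were all expressed and none of the 6 passed the test. Some differed between libraries of a group. Hoxa9 had 430, 159 and 154 CPM in LSPCT replicates 1 to 3, and Itgam had 178, 111 and 323 CPM in LSPC replicates 1 to 3. In each group 1 library stood apart. LSPC replicate 3 was at least 2-fold above the mean of LSPC replicates 1 and 2 for 297 tested genes (2.33%) and at least 2-fold below it for 26. LSPCT replicate 1 was at least 2-fold above the mean of LSPCT replicates 2 and 3 for 555 (4.36%) and at least 2-fold below it for 273. Both comparisons are on the log2(CPM + 0.5) scale, and such counts were not made for the other libraries. Values without these libraries are given for each ligand gene whose call or fold change moved most when one was left out (Cd80, Cd86, Cd274 and Pdcd1lg2).

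**Figure D1:**
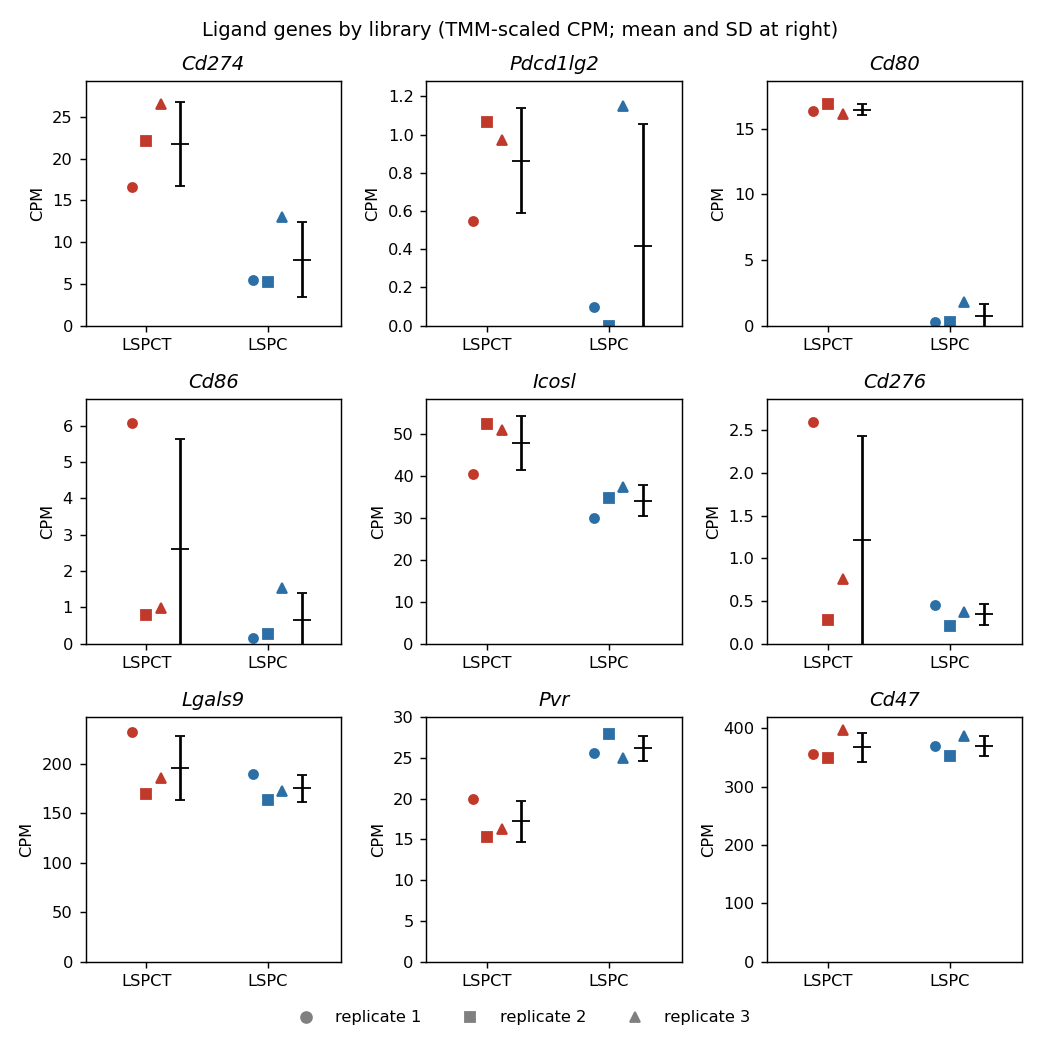
Each panel gives 1 ligand gene in TMM-scaled CPM on a linear axis from 0, with LSPCT libraries in red at the left, LSPC libraries in blue at the right, a symbol for each replicate number, and the mean with SD in black. Cd80, Cd274 and Icosl lie higher in every LSPCT library than in any LSPC library and Pvr lies lower. The triangle of LSPC replicate 3 lies above the other LSPC libraries for Cd274, Pdcd1lg2, Cd80 and Cd86.

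The promoters of the 3 genes that rose are shown because these genes moved in the same direction. They are the 250 bases before the transcript start in RefSeq (GRCm38.p6, which is not the mm9 build named for the counts). Capitals mark a match to the NF-kB consensus, to the interferon-gamma activated sequence TTCNNNGAA or to the interferon-stimulated element (GAAA, any 2 bases, GAAA), searched on both strands. The windows are chr16:38458683-38458932 for Cd80, chr19:29367188-29367437 for Cd274 and chr10:78069118-78069367 for Icosl, all on the plus strand.
Cd80: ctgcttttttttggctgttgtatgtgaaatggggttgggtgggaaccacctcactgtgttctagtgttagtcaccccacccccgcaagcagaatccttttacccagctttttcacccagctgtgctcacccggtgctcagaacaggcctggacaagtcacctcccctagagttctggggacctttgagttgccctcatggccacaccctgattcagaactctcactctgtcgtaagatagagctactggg
Cd274: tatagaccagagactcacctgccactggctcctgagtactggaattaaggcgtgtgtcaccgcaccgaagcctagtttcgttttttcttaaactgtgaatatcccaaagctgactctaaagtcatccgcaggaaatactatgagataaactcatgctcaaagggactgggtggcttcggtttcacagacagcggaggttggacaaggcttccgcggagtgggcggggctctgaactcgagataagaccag
Icosl: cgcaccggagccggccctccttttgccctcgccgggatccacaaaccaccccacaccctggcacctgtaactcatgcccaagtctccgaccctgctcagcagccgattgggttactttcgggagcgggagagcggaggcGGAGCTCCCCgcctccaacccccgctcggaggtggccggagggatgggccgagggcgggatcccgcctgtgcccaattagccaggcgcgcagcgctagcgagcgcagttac
Icosl held 1 match to the NF-kB consensus, from base -111 to -102 relative to the start, and the windows of Cd80 and Cd274 held no match to any of the 3 motifs. Promoters were found for 7 of the 9 genes. Among the others, Pdcd1lg2 held the NF-kB consensus match GGGGAATCCC from base -244 to -235 and Lgals9 the interferon-stimulated element TTTCTTTTTC from base -55 to -46, and these 2 genes did not pass the test. Over 32851 promoter windows of the same length, 7.25% held the NF-kB consensus, 7.02% the activated sequence and 2.98% the stimulated element. The matches did not overlap each other and are descriptions of letters only.

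Cd80, the costimulatory ligand of CD28 and CTLA-4, showed the largest fitted change of the group and was close to silent in 2 of the 3 LSPC libraries. It had 327, 364 and 365 counts in LSPCT replicates 1 to 3 (16.3, 16.9 and 16.1 CPM), against 5, 6 and 48 counts in LSPC replicates 1 to 3 (0.248, 0.254 and 1.78 CPM). The LSPCT libraries lay within 1 CPM of each other, and LSPC replicate 3 was the highest of its group while remaining far below all of them. The mean was 16.5 ± 0.389 CPM in LSPCT and 0.761 ± 0.883 CPM in LSPC (SD, n = 3 each). The fitted log2 fold change was 4.37 (standard error, SE, 0.64; 95% interval 2.89 to 5.85; edgeR adjusted p = 0.00331). Cd80 passed in each of 14 alternative fits (log2 3.95 to 6.01). Without LSPC replicate 3 its log2 fold change was 6.01 (edgeR adjusted p = 3.93e-05). In bulk RNA, more cells that express a gene and more RNA per cell cannot be told apart.

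Cd86, which shares its receptors with Cd80, did not pass the test, and the difference between both genes was not tested. It had 6.09, 0.789 and 0.973 CPM in LSPCT replicates 1 to 3, against 0.149, 0.254 and 1.52 CPM in LSPC replicates 1 to 3. One library stood high in each group, and the groups overlapped because LSPC replicate 3 exceeded LSPCT replicates 2 and 3. The log2 fold change of 1.97 (SE 1.02, 95% interval -0.37 to 4.32) did not pass (edgeR adjusted p = 0.229). It was 0.41 without LSPCT replicate 1 (edgeR adjusted p = 0.766) and 3.65 without LSPC replicate 3 (edgeR adjusted p = 0.0796). With both left out, an alternative chosen after seeing the data, it was 2.08 and passed (edgeR adjusted p = 0.0378).

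Icosl, the ligand of ICOS, was modestly higher. Its level was 40.5, 52.3 and 50.9 CPM in LSPCT replicates 1 to 3, against 30.1, 34.8 and 37.5 CPM in LSPC replicates 1 to 3. The groups did not overlap, although the lowest LSPCT library was close to the highest LSPC library. The mean was 47.9 ± 6.46 CPM in LSPCT and 34.1 ± 3.76 CPM in LSPC (SD, n = 3 each), which is 1.40-fold (95% interval 1.14 to 1.72; log2 0.49, SE 0.13, edgeR adjusted p = 0.0356). The adjusted p missed the threshold when LSPCT replicate 2 or 3 or LSPC replicate 1 or 2 was left out (edgeR adjusted p 0.0985 to 0.136, log2 0.41 to 0.50).

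Cd274, which encodes the inhibitory ligand PD-L1, rose. It stood at 16.6, 22.1 and 26.6 CPM in LSPCT replicates 1 to 3, against 5.42, 5.17 and 13.1 CPM in LSPC replicates 1 to 3. LSPC replicate 3 lay between the other LSPC libraries and the LSPCT libraries, and the groups did not overlap. The mean was 21.8 ± 4.98 CPM in LSPCT and 7.88 ± 4.49 CPM in LSPC (SD, n = 3 each), which is 2.75-fold (95% interval 1.53 to 4.96; log2 1.46, SE 0.37, edgeR adjusted p = 0.0306). Without LSPC replicate 3 the log2 fold change was 2.05 (edgeR adjusted p = 0.00205). It missed the threshold when LSPCT replicate 2 or 3 or LSPC replicate 1 or 2 was left out (edgeR adjusted p 0.0768 to 0.112, log2 1.22 to 1.45).

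Pdcd1lg2, which encodes PD-L2 and neighbours Cd274 on chromosome 19, was near the limit of detection. It had 11, 23 and 22 counts in LSPCT replicates 1 to 3 (0.549, 1.07 and 0.973 CPM), against 2, 0 and 31 counts in LSPC replicates 1 to 3 (0.0994, 0 and 1.15 CPM). LSPC replicate 3 was the highest of all 6 libraries, whereas the other LSPC libraries held 2 counts between them. The log2 difference of 0.99 (SE 1.03, 95% interval -1.39 to 3.36) did not pass (edgeR adjusted p = 0.567). Without LSPC replicate 3 the ratio of 56 to 2 counts, corrected for library totals, was 19.1 (exact 95% counting interval 5.04 to 161), and the gene passed (fitted log2 4.06, edgeR adjusted p = 0.0417). The counting interval pools reads over libraries and leaves out the spread between them. Both values also leave out the library with the highest level. The annotated gene A930007I19Rik overlaps Pdcd1lg2 in GENCODE M21 and had 0.0999 to 0.789 CPM in LSPCT and 0.127 to 0.348 CPM in LSPC, so without a stated strand setting some reads could belong to either.

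Cd276, the B7 family gene of B7-H3, a ligand found on many solid tumours, was below 1 CPM in every library except LSPCT replicate 1 (2.60 CPM). It had 52, 6 and 17 counts in LSPCT replicates 1 to 3, against 9, 5 and 10 counts in LSPC replicates 1 to 3. LSPCT replicate 1 stood high and the remaining libraries overlapped. Tested with no filter on low counts, the log2 difference was 1.79 and did not pass (edgeR adjusted p = 0.174).

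The more abundant ligands moved little. Lgals9 had 232, 169 and 185 CPM in LSPCT replicates 1 to 3, against 189.9, 163 and 173 CPM in LSPC replicates 1 to 3. The groups overlapped, and the log2 difference of 0.16 (SE 0.13) did not pass (edgeR adjusted p = 0.449), with a 95% interval of 0.910-fold to 1.37-fold. Cd47 had 356, 349.6 and 396 CPM in LSPCT replicates 1 to 3, against 369, 352 and 386 CPM in LSPC replicates 1 to 3. Its libraries were interleaved, and the log2 difference of -0.01 (SE 0.08, edgeR adjusted p = 0.970) had a 95% interval of 0.871-fold to 1.14-fold, which does not reach the 2.75-fold of Cd274.

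Pvr, the gene of CD155, was the member that fell. It had 20.0, 15.3 and 16.3 CPM in LSPCT replicates 1 to 3, against 25.6, 27.9 and 24.9 CPM in LSPC replicates 1 to 3. Every LSPCT library was below every LSPC library. The mean was 17.2 ± 2.48 CPM in LSPCT and 26.2 ± 1.56 CPM in LSPC (SD, n = 3 each), which is 0.658-fold (95% interval 0.530 to 0.817; log2 -0.60, SE 0.14, edgeR adjusted p = 0.0196). It missed the threshold when LSPCT replicate 2 or 3 or LSPC replicate 1 or 2 was left out (edgeR adjusted p 0.0593 to 0.0769, log2 -0.62 to -0.53).

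**Figure D2:**
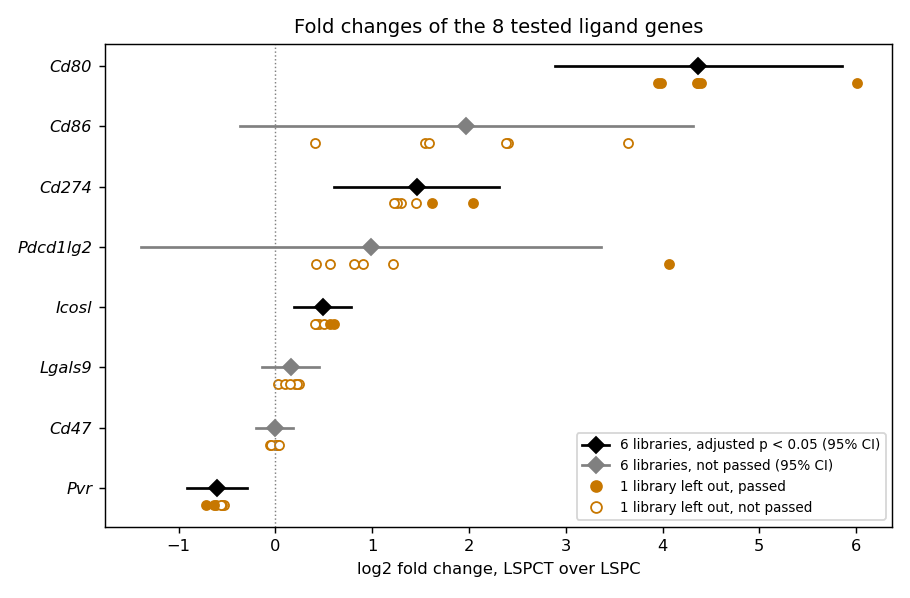
Log2 fold changes (LSPCT over LSPC, horizontal axis) of the 8 tested ligand genes, with diamonds and lines for the fit to 6 libraries and its 95% interval, black where the adjusted p passed, and circles for the fits with 1 library left out, filled where they passed. Cd80 keeps filled circles throughout, while Cd274, Icosl and Pvr each keep 2 of 6, and Pdcd1lg2 passes with LSPC replicate 3 left out.

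To set the genes beside each other, levels were divided by the length of the merged GENCODE M21 exons, since CPM alone favours long transcripts. In LSPCT libraries the order of mean CPM per kilobase was Lgals9 (91.4 ± 15.2), Cd47 (58.5 ± 4.0), Icosl (10.4 ± 1.40), Cd274 (6.01 ± 1.38), Cd80 (4.44 ± 0.105), Pvr (2.81 ± 0.405), Cd86 (0.715 ± 0.822), Pdcd1lg2 (0.440 ± 0.141) and Cd276 (0.330 ± 0.335; SD, n = 3). In LSPC libraries it was Lgals9 (82.0 ± 6.36), Cd47 (58.8 ± 2.72), Icosl (7.39 ± 0.813), Pvr (4.27 ± 0.255), Cd274 (2.18 ± 1.24), Pdcd1lg2 (0.212 ± 0.325), Cd80 (0.206 ± 0.239), Cd86 (0.175 ± 0.209) and Cd276 (0.0939 ± 0.0328). Galectin-9 and CD47 transcripts thus led in both groups. Pvr ranked above Cd274 and Cd80 in LSPC libraries and below both in LSPCT libraries. The lowest 3 genes in LSPCT libraries, and the lowest 4 in LSPC libraries, lay within their spread over libraries, and Cd274 and Cd80 were close in LSPCT libraries (4.59 to 7.34 against 4.36 to 4.56).

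LSPC replicate 3 was the highest LSPC library for Cd80, Cd86, Cd274, Pdcd1lg2, Icosl and Cd47, by differing amounts. On the log2(CPM + 0.5) scale it exceeded the mean of LSPC replicates 1 and 2 by 1.602 for Cd80, 1.59 for Pdcd1lg2, 1.53 for Cd86 and 1.23 for Cd274, more than for 98.8%, 98.8%, 98.7% and 98.3% of the genes tested. For Icosl, Lgals9, Pvr and Cd47 the same difference was 0.21, -0.03, -0.10 and 0.10. The dendritic cell markers (6 genes, of which 4 were tested, 1 rose and none fell, with none at 0 in all libraries) summed to 31.5 to 40.5 CPM in LSPCT libraries and to 7.60, 6.10 and 23.9 CPM in LSPC replicates 1 to 3. The gene that rose was Ccr7, where 8.96% of all genes tested were called higher. Most of that sum was Itgax, which encodes CD11c and is also found on other myeloid cells, with 33.6, 26.7 and 25.4 CPM in LSPCT replicates 1 to 3 and 6.21, 3.60 and 21.3 CPM in LSPC replicates 1 to 3. Among the LSPC libraries, Zbtb46, Clec9a and Siglech were also highest in replicate 3, each below 1 CPM. Xcr1 was lowest there (0.845, 0.847 and 0.557 CPM in replicates 1 to 3) and Ccr7 lay between the others (0.298, 1.23 and 0.742 CPM). Itgam, listed with the leukaemia markers, was highest there as well (178, 111 and 323 CPM). The part of these cells or genes in the ligand differences was not tested.

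LSPCT replicate 1 stood apart in another way. Among the members it deviated most for Cd86, by 2.26 on the log2(CPM + 0.5) scale from the mean of LSPCT replicates 2 and 3, more than for 99.5% of the genes tested, and for Cd80 it differed by -0.02. The macrophage markers (8 genes, all tested, of which 7 rose, none fell and none was at 0 in all libraries) summed to 619, 276 and 323 CPM in LSPCT replicates 1 to 3 and to 187 to 221 CPM in LSPC libraries. Over all genes tested, 8.96% were called higher and 8.24% lower, which holds beside each marker list. Cd68, the marker that did not pass (edgeR adjusted p = 0.113), stood lower, at 97.4 to 105 CPM in LSPCT and 113 to 121 CPM in LSPC. Together with Emr1 it made up most of the sum in LSPC libraries. Mrc1 and Fcgr1 reached the minimum count in 3 LSPCT libraries each, but in 1 and 0 LSPC libraries. They therefore entered the test through the group in which they were high. The complement gene C1qa had 92.5, 8.03 and 14.3 CPM in LSPCT replicates 1 to 3, against 3.63, 0.339 and 2.004 CPM in LSPC replicates 1 to 3. The mannose receptor gene Mrc1 had 57.0, 6.31 and 18.1 CPM in LSPCT replicates 1 to 3, against 1.89, 0 and 0.445 CPM in LSPC replicates 1 to 3. LSPCT replicate 1 held most of both in its group, and the other LSPCT libraries still lay above every LSPC library. Among the LSPCT libraries, replicate 1 was the highest for Cd86, the lowest for Cd274 and within the range of the others for Cd80. The part of the macrophage markers in the Cd80, Cd86 and Cd274 values was not tested. T cell markers (7 genes, 6 tested, 1 higher) summed to 79.4, 29.3 and 43.7 CPM in LSPCT replicates 1 to 3 and to 18.5 to 23.0 CPM in LSPC. The marker that rose was Lck, which made up most of each sum (54.5, 20.1 and 31.4 CPM in LSPCT replicates 1 to 3). Among the LSPCT libraries, replicate 1 was the highest for Lck, Cd3e, Cd3d, Cd3g and Cd4 and the lowest for Cd2 and Cd8a. B cell markers (5 genes, 2 tested, none called) summed to 27.0 to 48.7 CPM in LSPCT and 40.7 to 45.5 CPM in LSPC, nearly all of it Cd79b, with Pax5 at 0 in all libraries. NK cell markers (5 genes, 1 tested, none called) stayed at 0.849 to 2.37 CPM in LSPCT and 0.745 to 1.78 CPM in LSPC, with Ncr1 at 0 in all libraries. Erythroid markers (4 genes, 1 tested, none called) stayed below 1 CPM, with Hbb-b1 and Hba-a1 at 0 in all libraries. The handling of reads with several positions is not stated, so 0 counts alone do not show that these genes were silent. Endothelial markers (4 genes, 1 tested, 1 lower) summed to 53.8 to 84.0 CPM in LSPCT and 125 to 162 CPM in LSPC, nearly all of it Pecam1, which myeloid cells express as well.

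**Figure D3:**
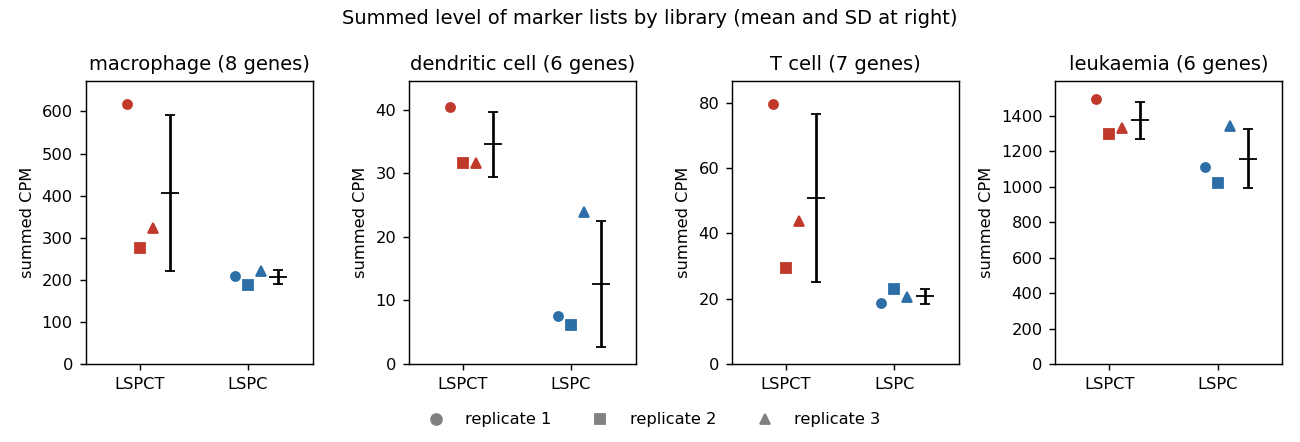
Summed CPM of 4 marker lists by library, on linear axes from 0, with LSPCT in red, LSPC in blue, a symbol for each replicate number, and the mean with SD in black. LSPCT replicate 1 (circle) leads the macrophage list at 619 CPM and LSPC replicate 3 (triangle) lies at 23.9 CPM in the dendritic cell list, above the other LSPC libraries.

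Beside the ligands, 62 partner genes in 4 lists were examined, of which 49 were tested, 9 rose and 4 fell. Those that passed are 26.5% of the partner genes tested, against 17.2% of all genes tested (8.96% higher and 8.24% lower). The other ligands read by T or NK cells (20 genes, 11 tested) gave 4 that rose and none that fell (36.4% passed, against 17.2% of all genes tested), with a median log2 fold change of 0.47. Icam1, the adhesion ligand of LFA-1 in the immune synapse, stood at 100.5, 98.4 and 114 CPM in LSPCT replicates 1 to 3, against 28.6, 20.1 and 29.5 CPM in LSPC replicates 1 to 3, with no overlap (log2 2.001, SE 0.15, edgeR adjusted p = 0.000141). Pvrl2, which encodes nectin-2, a relative of CD155 that also binds CD226, went the opposite way from Pvr. It had 26.7, 28.4 and 21.4 CPM in LSPCT replicates 1 to 3, against 14.0, 16.2 and 11.9 CPM in LSPC replicates 1 to 3 (log2 0.86, SE 0.17, edgeR adjusted p = 0.0105; 0.0513 without LSPC replicate 1). Cd40, the receptor through which helper T cells license antigen-presenting cells, had 19, 26 and 48 counts in LSPCT replicates 1 to 3 and 0, 0 and 6 in LSPC replicates 1 to 3. It reached the minimum count in 3 LSPCT libraries and 0 LSPC libraries, so that it entered the test through the group in which it was high, and a stricter filter left it out. It passed (edgeR adjusted p = 0.0210) but missed the threshold without LSPCT replicate 3 or LSPC replicate 1 or 2 (edgeR adjusted p 0.0670 to 0.0820). Clec2d, a ligand of the NKR-P1 receptors of NK cells, averaged 36.1 ± 6.19 CPM in LSPCT and 24.4 ± 0.903 CPM in LSPC (SD, n = 3 each; log2 0.56, edgeR adjusted p = 0.0236), and missed the threshold when any LSPC library was left out (edgeR adjusted p 0.0671 to 0.103). Vtcn1, Cd70, Fgl1 and Ulbp1 had no count in any library.

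The list of lymphocyte receptors (16 genes, 13 tested) also holds receptors, Btla among them, that read other ligands than the members. It gave 1 that rose and 2 that fell (23.1% passed, against 17.2% of all genes tested), with a median log2 fold change of -0.00. Cd96, a receptor of CD155, had 16.5, 7.89 and 10.5 CPM in LSPCT replicates 1 to 3, against 0.944, 0.932 and 0.742 CPM in LSPC replicates 1 to 3, with no overlap (log2 3.73, SE 0.34, edgeR adjusted p = 0.000330). Cd28, the receptor of CD80 and CD86, had 1.30, 0.742 and 0.531 CPM in LSPCT replicates 1 to 3, against 4.07, 6.40 and 3.64 CPM in LSPC replicates 1 to 3 (log2 -2.46, SE 0.42, edgeR adjusted p = 0.00643). Btla, an inhibitory receptor of the same superfamily, averaged 27.6 ± 5.74 CPM in LSPCT and 47.7 ± 3.52 CPM in LSPC (SD, n = 3 each; log2 -0.79, edgeR adjusted p = 0.0110). Receptor transcripts were thus measured in the sorted leukaemia samples themselves, and the counts do not say which cells carried them.

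Genes of the phagocytosis checkpoint (10 genes, 9 tested) gave 1 that rose and 2 that fell (33.3% passed, against 17.2% of all genes tested), with a median log2 fold change of 0.20. Cd24a, which encodes CD24, in human tumours a signal against engulfment that is read by Siglec-10, had 75.5, 33.5 and 38.7 CPM in LSPCT replicates 1 to 3, against 189.7, 186 and 207 CPM in LSPC replicates 1 to 3. The groups were far apart (log2 -1.98, SE 0.28, edgeR adjusted p = 0.00267). Siglecg, the mouse counterpart of human Siglec-10, moved the other way, with 44.0, 59.7 and 47.0 CPM in LSPCT replicates 1 to 3 against 14.4, 26.9 and 13.1 CPM in LSPC replicates 1 to 3 (log2 1.47, SE 0.27, edgeR adjusted p = 0.00843). Lrp1, a phagocyte receptor for calreticulin, averaged 116 ± 41.6 CPM in LSPCT and 293 ± 76.9 CPM in LSPC (SD, n = 3 each; log2 -1.33, edgeR adjusted p = 0.0117). Sirpa, the receptor of CD47, stood at 311 ± 8.70 CPM in LSPCT and 271 ± 44.3 CPM in LSPC (SD, n = 3 each) and did not pass (log2 0.20, edgeR adjusted p = 0.298).

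Regulators of PD-L1 (16 genes, all tested) gave 3 that rose and none that fell, a share of 18.8%, against 17.2% of all genes tested. B3gnt3, a glycosyltransferase that modifies PD-L1 in human breast cancer cells, averaged 7.10 ± 2.36 CPM in LSPCT and 1.10 ± 0.0535 CPM in LSPC (SD, n = 3 each; log2 2.68, edgeR adjusted p = 0.00124). Ifngr2, a chain of the interferon-gamma receptor, averaged 90.2 ± 16.1 CPM in LSPCT and 62.0 ± 7.23 CPM in LSPC (SD, n = 3 each; log2 0.54, edgeR adjusted p = 0.0402), and missed the threshold without LSPCT replicate 2 or 3 or LSPC replicate 1 or 2 (edgeR adjusted p 0.105 to 0.138). Irf1, an interferon-induced activator of Cd274, did not pass (log2 0.14, edgeR adjusted p = 0.346). Cmtm6, which keeps PD-L1 at the surface in human cells, stood at 109.9 ± 12.2 CPM in LSPCT and 134 ± 10.9 CPM in LSPC (SD, n = 3 each) and did not pass either (edgeR adjusted p = 0.116).

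**Figure D4:**
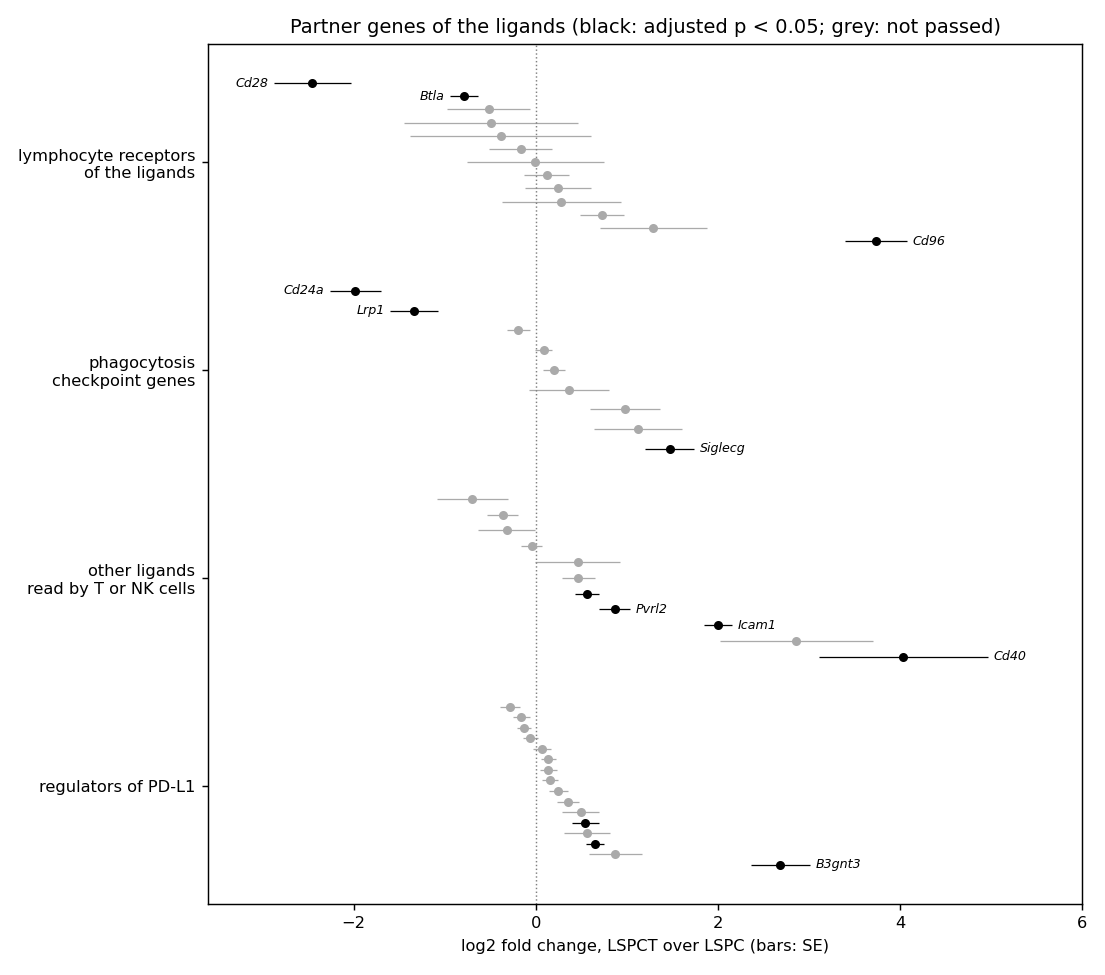
Log2 fold changes (LSPCT over LSPC, horizontal axis, bars for SE) of the 49 tested partner genes in 4 lists, black where the adjusted p passed, with the larger of these changes named, and grey where it did not. Cd96, Cd40, B3gnt3, Icam1 and Siglecg lie to the right and Cd28, Cd24a, Lrp1 and Btla to the left.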

How the data were processed

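The deposited files hold whole-number counts per gene symbol for each of 6 libraries, as the authors made them and with no normalization. The submitters' processing notes name mm9 and the tools featureCounts, TopHat2 2.1.0, DESeq2 and FastQC, without their roles; the annotation, the strand setting and the handling of reads with several positions are not stated there. Counts were scaled with TMM factors, filtered with filterByExpr (minimum of 10 counts, 12729 of 24015 genes kept) and compared with edgeR 4.0.16 (glmQLFit and glmQLFTest, group as the only term, two-sided, R 4.3.3). The SE was taken as the size of the log2 fold change divided by the root of the F statistic; CPM uses the TMM-scaled library total. Groups follow the sample titles. Alternatives were RLE, upper quartile or no factors, no filter, a stricter filter (3 libraries over 1 CPM), limma voom 3.58.1, DESeq2 1.42.0, the replicate number as a block and leaving out libraries. Members and lists were chosen with earlier results of these data known; from each partner list up to 6 genes that passed are named by smallest p, others were named after their values were seen, and 1 gene that passed is not reported here. Replicates of a group differed by more than sampling noise (chi-square per degree of freedom 11.7 to 50.9).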

Additional observations from a re-analysis of the deposited data

How the results depend on the processing

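Over the planned settings other than leaving out a library, all 62 values of the 8 tested ligand genes kept their side of the threshold; with 1 library left out, 35 of 48 did. The 4 genes that passed kept their direction in all 56 fits, and the 13 partner genes that passed kept theirs in all 181. Leaving out 1 library left 1 to 5 ligand genes, 9 to 19 partner genes and 1029 to 3249 genes in all past the threshold, against 4, 13 and 2189 with all 6 libraries; 1029 was reached without LSPC replicate 1, 1242 without LSPC replicate 2, and these fits rest on fewer samples. With LSPC replicate 3 and LSPCT replicate 1 both left out, a setting chosen after seeing the data, 6 ligand genes (Cd80, Cd274, Icosl, Cd86 and Pdcd1lg2 higher, Pvr lower), 23 partner genes and 3376 genes passed. Cd47 changed sign between settings, within -0.05 to 0.05 on the log2 scale, and never passed. Havcr2, the TIM-3 gene, changed sign: its log2 difference was -0.00 with all libraries and -0.48 without LSPC replicate 2. It was 1.77 without LSPC replicate 3 (edgeR adjusted p = 0.0216). With LSPC replicate 3 and LSPCT replicate 1 left out, Havcr2 stood at 1.76 (edgeR adjusted p = 0.00553). The replicate numbers showed no clear pairing of the samples (correlations of deviations 0.19, -0.20 and 0.11 for numbers 1 to 3, and not every library correlated best with its own number). With 3 libraries per group these correlations cannot exclude a pairing. With the number as a replicate block, 4 ligand genes, 16 partner genes and 1792 genes passed. With DESeq2, 2761 genes passed. Genes below about 1 CPM (Cd86, Pdcd1lg2 and Cd276) rest on low counts in most libraries, which limits what could be detected. The cause of these changes was not tested.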

Other observations

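Havcr2, the gene of the galectin-9 receptor TIM-3, was chosen after its values were seen. It had 4.69, 4.78 and 4.47 CPM in LSPCT replicates 1 to 3, against 1.69, 1.06 and 11.1 CPM in LSPC replicates 1 to 3, so that LSPC replicate 3 exceeded every LSPCT library while the other LSPC libraries lay below all of them. The inhibitory receptor gene Pirb and the paired receptor gene Pilra likewise missed the threshold with all libraries (log2 1.12 and 0.98, edgeR adjusted p = 0.153 and 0.121) and passed without LSPC replicate 3 (log2 1.88 and 1.59, edgeR adjusted p = 0.0151 and 0.00708). Pirb also passed without LSPCT replicate 1 (edgeR adjusted p = 0.0467) and, with all libraries, with the replicate number as a block (edgeR adjusted p = 0.0350), where Pilra did not (edgeR adjusted p = 0.0704). Pvrl1, which encodes nectin-1, had 4.79, 10.7 and 8.49 CPM in LSPCT replicates 1 to 3 and 0.199, 0.297 and 2.71 CPM in LSPC replicates 1 to 3. It missed the threshold narrowly (log2 2.86, SE 0.84, edgeR adjusted p = 0.0516) and passed with DESeq2 (adjusted p = 0.0428), with limma voom (adjusted p = 0.0184) and without LSPC replicate 3 (edgeR adjusted p = 0.00130). Pvrl1 reached the minimum count in 3 LSPCT libraries and 1 LSPC library. It thus entered the test through the group in which it was high, and it was named after its values were seen.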
